A study of Homo sapiens with 12 samples.

Results

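The 10 cytosolic heat shock genes HSPB1, HSPB8, CRYAB, HSPA1A, HSPA1B, HSPA2, HSPA8, HSPH1, DNAJB1 and BAG3 were read by their symbols from a table of RNA-seq counts. They are 10 of the 53712 named genes in that table. All 10 passed the filter on low counts that left 17228 genes for testing. The 12 libraries came from H9 cells, an established human embryonic stem cell line, grown in RSeT medium, which is sold for naive-like pluripotent culture. There were 4 libraries from cells given ASO-L1, an antisense oligonucleotide against RNA of the LINE-1 (L1) retrotransposon, 4 from cells given SO-L1, the sense oligonucleotide, and 4 from cells given ASO-Ctr, a non-targeting antisense oligonucleotide.

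What all groups shared is part of the background of every value below. Each oligonucleotide was used at 25 nM with a lipid transfection reagent. Cells of all 3 groups were then kept with 10 nM DZNep, an inhibitor of histone methylation by EZH2, and 5 nM TSA, a histone deacetylase inhibitor. They also received 0.7 uM trans-ISRIB, which counters the integrated stress response, 5 uM emricasan, a caspase inhibitor, and 10 uM Y-27632, a ROCK inhibitor, and these 3 compounds were taken away at 24 h. Cells were harvested at 48 h without sorting for transfected cells. No untransfected culture was analysed here, and no label names a heated one. The level of L1 RNA itself was not analysed here, and all libraries came from 1 cell line. No label says whether the 4 libraries of a group came from separate cultures, so p-values measure the spread between these libraries, which may be technical.

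Heat shock proteins keep other proteins folded. Small heat shock proteins (the HSPB family and alpha-crystallin B) bind unfolded chains without using ATP and hold them soluble. Hsp70 proteins then refold or hand on the chain in cycles of ATP use, driven by J domain proteins such as DNAJB1 and by nucleotide exchange factors such as HSPH1 and BAG3. Many of these genes carry heat shock elements, inverted repeats of the letters GAA, which the transcription factor HSF1 binds under stress, whereas HSPA8 is known as the member that most cells make at all times.

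The promoters that follow are those of HSPB8, HSPB1, HSPA1A, HSPA1B and HSPA8. The main test of ASO-L1 against ASO-Ctr called all of these higher except HSPA8. They were chosen by name and are only a part of the members. The called HSPH1 and the uncalled DNAJB1, BAG3 and HSPA2 are not printed. The split between called and not called depends on the fit. HSPA8 was called higher with the library number as a block (edgeR adjusted p 0.00240), and HSPA1A was not called against SO-L1 (edgeR adjusted p 0.0613). A link between motifs and calls was not tested. RefSeq promoter windows (GRCh38.p14) were found for 9 of the 10 members, CRYAB being the other. DNAJB1 has 3 windows, so there are 11 in all. The lines give 250 bases before to 20 bases after the annotated start, 5′ to 3′, and capitals mark the fixed letters of the motifs GAANNTTC, TTCNNGAA or the longer form made of GAANNTTC followed at once by NNGAA. All were searched on both strands, and the longer form contains both shorter ones.
HSPB8, chr12:119178681-119178950, plus strand: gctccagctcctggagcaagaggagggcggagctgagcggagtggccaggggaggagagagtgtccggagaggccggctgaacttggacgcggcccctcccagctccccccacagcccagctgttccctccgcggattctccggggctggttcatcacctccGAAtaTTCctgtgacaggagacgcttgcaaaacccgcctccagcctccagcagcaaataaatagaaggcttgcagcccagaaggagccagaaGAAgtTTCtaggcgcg
HSPB1, chr7:76302423-76302692, plus strand: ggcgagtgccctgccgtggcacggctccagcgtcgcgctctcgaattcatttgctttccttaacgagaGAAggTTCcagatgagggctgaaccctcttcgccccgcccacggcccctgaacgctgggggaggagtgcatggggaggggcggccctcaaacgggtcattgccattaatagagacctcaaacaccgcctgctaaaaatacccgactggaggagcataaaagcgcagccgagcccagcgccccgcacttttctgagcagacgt
HSPA1A, chr6:31815293-31815562, plus strand: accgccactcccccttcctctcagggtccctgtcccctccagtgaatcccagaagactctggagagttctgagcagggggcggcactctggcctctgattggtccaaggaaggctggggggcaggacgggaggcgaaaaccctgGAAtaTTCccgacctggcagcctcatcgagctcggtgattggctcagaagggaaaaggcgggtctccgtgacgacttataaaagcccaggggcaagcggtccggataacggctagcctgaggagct
HSPA1B, chr6:31827488-31827757, plus strand: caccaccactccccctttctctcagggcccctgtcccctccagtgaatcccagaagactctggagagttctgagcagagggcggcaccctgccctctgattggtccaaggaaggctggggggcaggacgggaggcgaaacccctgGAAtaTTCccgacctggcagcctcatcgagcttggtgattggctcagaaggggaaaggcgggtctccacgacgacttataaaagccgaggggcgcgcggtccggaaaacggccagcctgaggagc
HSPA8, chr11:123062117-123062386, minus strand: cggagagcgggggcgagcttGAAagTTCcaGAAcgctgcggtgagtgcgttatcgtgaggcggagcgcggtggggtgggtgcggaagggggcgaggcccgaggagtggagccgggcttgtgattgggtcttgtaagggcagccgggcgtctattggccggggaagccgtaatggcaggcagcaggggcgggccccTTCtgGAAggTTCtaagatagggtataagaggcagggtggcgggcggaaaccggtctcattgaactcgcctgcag

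HSPB8 held 2 matches to GAANNTTC, with first bases 88 bases before the start and at base 4 after it. HSPB1 held 1 match 182 bases before its start. HSPA1A and HSPA1B each held 1 match, beginning 106 and 105 bases before the start, and their 300-base windows were identical at 277 aligned bases. HSPA8 was the only member of the 9 with the longer form, which it held at 2 places with first bases at -230 and -55 from the start, the second on the other strand. Among 35116 promoter windows of 300 bases, 6.77% held GAANNTTC, 7.74% held TTCNNGAA and 0.49% held the longer form. Of the 11 windows of the members 7 held GAANNTTC, 1 held TTCNNGAA and 1 held the longer form. The windows of HSPA2, BAG3 and HSPH1, of which HSPH1 was also called higher, held none of them. DNAJB1, which the main test did not call, held matches to GAANNTTC with first bases at -77, -47 and 1 from the starts of its windows. A match is a string of letters, and no binding was measured.

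Library totals lay between 20367989 and 32180891 counts, and mitochondrially encoded RNAs took 7.10% ± 1.19 of the counts in ASO-L1, 7.28% ± 0.644 in SO-L1 and 7.14% ± 1.60 in ASO-Ctr (SD, n = 4 each). Libraries numbered 1 and 2 differed from those numbered 3 and 4. With the group means removed, the correlation across genes of same-number libraries in different groups was 0.450 to 0.561, that with the other number of the same pair was 0.455 to 0.543, and across the 2 pairs it was -0.530 to -0.426. In ASO-Ctr library 1 was no nearer to library 2 (chi-square of 18.2 per gene) than to libraries 3 and 4 (18.5 and 15.9). Mitochondrial RNAs entered this chi-square, and they took 8.08% of the counts in ASO-Ctr library 1 and 4.74% in ASO-Ctr library 2. Their part in it was not tested. No label names what the numbers stand for, so results are also given within each pair of numbers. The embryonic stem cell label was checked on 8 markers (POU5F1, SOX2, NANOG and others), whose summed level was 6201 to 6769 CPM (counts scaled to a common library size) in ASO-L1, 6725 to 7273 CPM in SO-L1 and 6917 to 7529 CPM in ASO-Ctr. In ASO-L1 against ASO-Ctr 4 of these 8 were lower and 0 higher by the test, beside 10.7% of all genes lower, and with the library number as a block 8 were lower, beside 22.5% of all genes. In bulk RNA, fewer cells of a type and less RNA per cell cannot be told apart.

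Markers of other cell types were counted in the same comparison, in which 11.6% of all genes were higher. Of 6 tested fibroblast markers 2 were higher, and the 10 listed summed to 313 to 412 CPM in ASO-L1, 246 to 375 CPM in SO-L1 and 262 to 391 CPM in ASO-Ctr. Of 6 tested trophectoderm and amnion markers 3 were higher, with sums of 209 to 237 CPM in ASO-L1, 171 to 175 CPM in SO-L1 and 171 to 180 CPM in ASO-Ctr. Of 4 tested striated muscle markers, a tissue rich in CRYAB and HSPB8, 1 was higher, with sums of 25.9 to 29.9 CPM in ASO-L1, 17.8 to 25.2 CPM in SO-L1 and 17.8 to 24.4 CPM in ASO-Ctr. In these 3 lists 0 markers were lower, although the block called 2 fibroblast and 1 trophectoderm marker lower, and none was at 0 in all 12 libraries. Their part in the heat shock results was not tested.

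The comparison of ASO-L1 with ASO-Ctr asks how an antisense oligonucleotide against L1 changes expression relative to a non-targeting one. Of the 10 cytosolic heat shock genes, 6 were higher in ASO-L1, 0 were lower and 4 did not pass the test (edgeR quasi-likelihood test, adjusted p under 0.05 over all 17228 genes). Across all genes 22.3% were called, 11.6% as higher and 10.7% as lower. The median log2 fold change of the members was 0.40, beside -0.00 for all genes tested. Both small heat shock genes with the largest changes, HSPB8 and CRYAB, rose at least 2-fold, and 380 of the 17228 tested genes, or 2.21%, were called and rose as far.

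**Figure D1:**
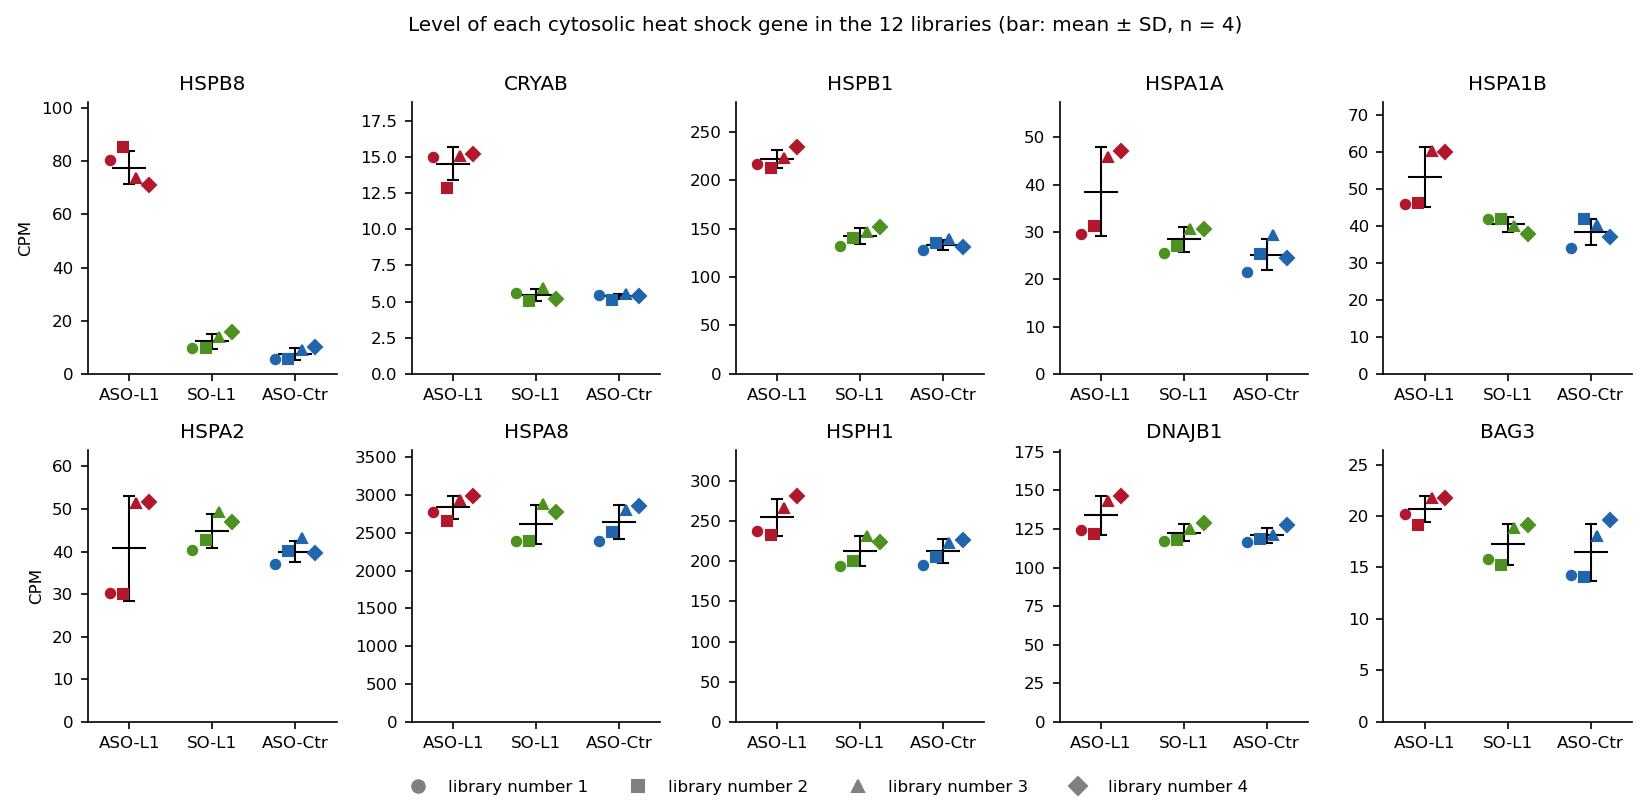
Level of each gene in CPM (vertical axes, starting at 0 and differing between panels) in ASO-L1 (red, left), SO-L1 (green, middle) and ASO-Ctr (blue, right) libraries; marker shapes give the library number, and black bars the mean ± SD of 4 libraries. All ASO-L1 values of HSPB8, CRYAB and HSPB1 lie above all values of the other 2 groups, and HSPA2 splits in ASO-L1 into about 30 CPM in libraries 1 and 2 and about 51 CPM in libraries 3 and 4.

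HSPB8, a small heat shock protein that works with BAG3 in chaperone-assisted autophagy, changed most. It stood at 80.4, 85.2, 73.9 and 71.1 CPM in ASO-L1 libraries 1 to 4, against 5.56, 5.50, 9.03 and 10.0 CPM in ASO-Ctr libraries 1 to 4. The groups were far from overlapping. It rose by a log2 fold change of 3.36 ± 0.20 (SE), or 10.3-fold, with an adjusted p of 3.92e-07 by edgeR, and by size it was rank 30 among the 17228 genes. HSPB8 has no stretch of 50 bases in common with the transcripts of another annotated gene (GENCODE release 29). Its gene overlaps AC084880.1 on the same strand and AC084880.3 on the other, and these were not examined.

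CRYAB encodes alpha-crystallin B, a small heat shock protein abundant in lens and muscle. It stood at 15.0, 12.9, 15.1 and 15.2 CPM in ASO-L1 libraries, against 5.46, 5.09, 5.49 and 5.37 CPM in ASO-Ctr libraries. The groups did not overlap, and the ASO-Ctr libraries lay close together. CRYAB rose by a log2 fold change of 1.44 ± 0.08, or 2.72-fold (edgeR adjusted p 2.20e-07). CRYAB overlaps HSPB2, HSPB2-C11orf52 and C11orf52 on the other strand, and the strand setting of the counting is not given in the sources used here. HSPB2 itself averaged 0.581 ± 0.120 CPM in ASO-L1 and 0.604 ± 0.0310 CPM in ASO-Ctr (SD, n = 4 each). HSPB2-C11orf52 and C11orf52 were not examined.

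HSPB1 encodes Hsp27, which also binds actin and intermediate filaments. It stood at 217, 213, 224 and 234 CPM in ASO-L1 libraries, against 128, 135, 139.8 and 131 CPM in ASO-Ctr libraries. The groups did not overlap, and averaged 222 ± 9.31 CPM in ASO-L1 and 133 ± 5.17 CPM in ASO-Ctr (SD, n = 4 each). HSPB1 rose by a log2 fold change of 0.73 ± 0.05 (edgeR adjusted p 8.94e-07). Of its 50-base stretches 11.4% occur in other genes, mostly the pseudogene HSPB1P1.

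HSPA1A and HSPA1B are neighbouring single-exon genes for the stress-inducible Hsp70, with nearly the same protein. HSPA1A stood at 29.5, 31.2, 45.9 and 47.2 CPM in ASO-L1 libraries, against 21.5, 25.3, 29.4 and 24.5 CPM in ASO-Ctr libraries. HSPA1B stood at 45.9, 46.2, 60.2 and 59.9 CPM in ASO-L1 libraries, against 34.0, 41.9, 40.1 and 37.0 CPM in ASO-Ctr libraries. Neither gene overlapped between groups, although the lowest HSPA1A library of ASO-L1 exceeded the highest of ASO-Ctr by a small margin. In both genes ASO-L1 libraries 3 and 4 were well above 1 and 2. The log2 fold changes were 0.61 ± 0.15 for HSPA1A (edgeR adjusted p 0.0114) and 0.47 ± 0.10 for HSPA1B (edgeR adjusted p 0.00404).

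How reads were divided between this pair is uncertain, since 72.56% of the 50-base stretches of HSPA1A and 73.46% of those of HSPA1B occur in another gene, mostly in each other. The ratio of HSPA1A to HSPA1B counts was 0.643 to 0.788 in ASO-L1, 0.608 to 0.809 in SO-L1 and 0.604 to 0.732 in ASO-Ctr, so the groups overlapped in it. With the counts of both genes summed, the log2 fold change of ASO-L1 against ASO-Ctr was 0.53 ± 0.11 (edgeR adjusted p 0.00471).

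HSPH1 encodes Hsp110, a nucleotide exchange factor for Hsp70. It stood at 238, 232, 266 and 282 CPM in ASO-L1 libraries, against 196, 205, 223 and 227 CPM in ASO-Ctr libraries. The groups did not overlap, but libraries 3 and 4 were the higher ones in both. HSPH1 rose by a log2 fold change of 0.26 ± 0.08 (edgeR adjusted p 0.0265). The call was lost without ASO-L1 library 3, ASO-L1 library 4, ASO-Ctr library 1 or ASO-Ctr library 2, with edgeR adjusted p of 0.0726, 0.0766, 0.0779 and 0.0712.

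The 4 members that did not pass were BAG3, DNAJB1, HSPA8 and HSPA2. BAG3 is the co-chaperone that links Hsp70 to small heat shock proteins. It stood at 20.2, 19.1, 21.7 and 21.7 CPM in ASO-L1 libraries, against 14.2, 14.1, 18.1 and 19.6 CPM in ASO-Ctr libraries. The groups overlapped only through ASO-Ctr library 4, and ASO-L1 was higher in 4 of 4 pairs of the same number. The log2 fold change was 0.33 ± 0.11 (edgeR adjusted p 0.0556, and 0.0201 without ASO-Ctr library 4).

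DNAJB1 encodes Hsp40, a J domain partner of Hsp70 whose gene is a heat shock target and overlaps TECR on the other strand. It stood at 124, 122, 143 and 146 CPM in ASO-L1 libraries, against 116, 119, 121 and 128 CPM in ASO-Ctr libraries. HSPA8, the constitutive Hsc70, stood at 2769.8, 2658, 2936 and 2992 CPM in ASO-L1 libraries, against 2398, 2508, 2804 and 2861 CPM in ASO-Ctr libraries. Groups overlapped for both genes, and ASO-L1 was higher in 4 of 4 same-number pairs of each. Log2 fold changes were 0.15 ± 0.06 for DNAJB1 (edgeR adjusted p 0.124) and 0.10 ± 0.07 for HSPA8 (edgeR adjusted p 0.369).

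HSPA2, an Hsp70 best known for its part in spermatogenesis, stood at 30.2, 30.0, 51.4 and 51.6 CPM in ASO-L1 libraries, against 37.1, 40.0, 43.3 and 39.6 CPM in ASO-Ctr libraries. Libraries 1 and 2 of ASO-L1 lay below every ASO-Ctr library and libraries 3 and 4 above every one. The overall log2 fold change was 0.03 ± 0.17 (edgeR adjusted p 0.939).

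Same-number libraries varied together, but no more than libraries of the other number of their pair, so a block by number cannot be told apart from one by pair. With the number entered as a block the edgeR fit called 9 members higher and 0 lower. The blocked fit called 45% of all genes, 22.5% as higher and 22.5% as lower. The block brought in BAG3 (edgeR adjusted p 1.38e-05), DNAJB1 (7.34e-04) and HSPA8 (0.00240), whose blocked log2 fold changes were 0.34, 0.14 and 0.11, and left HSPA2 out (0.997). By overlap of the CPM values, 6 members had every ASO-L1 library above every ASO-Ctr library, against 13.3% of all genes, and these were the 6 called ones.

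**Figure D2:**
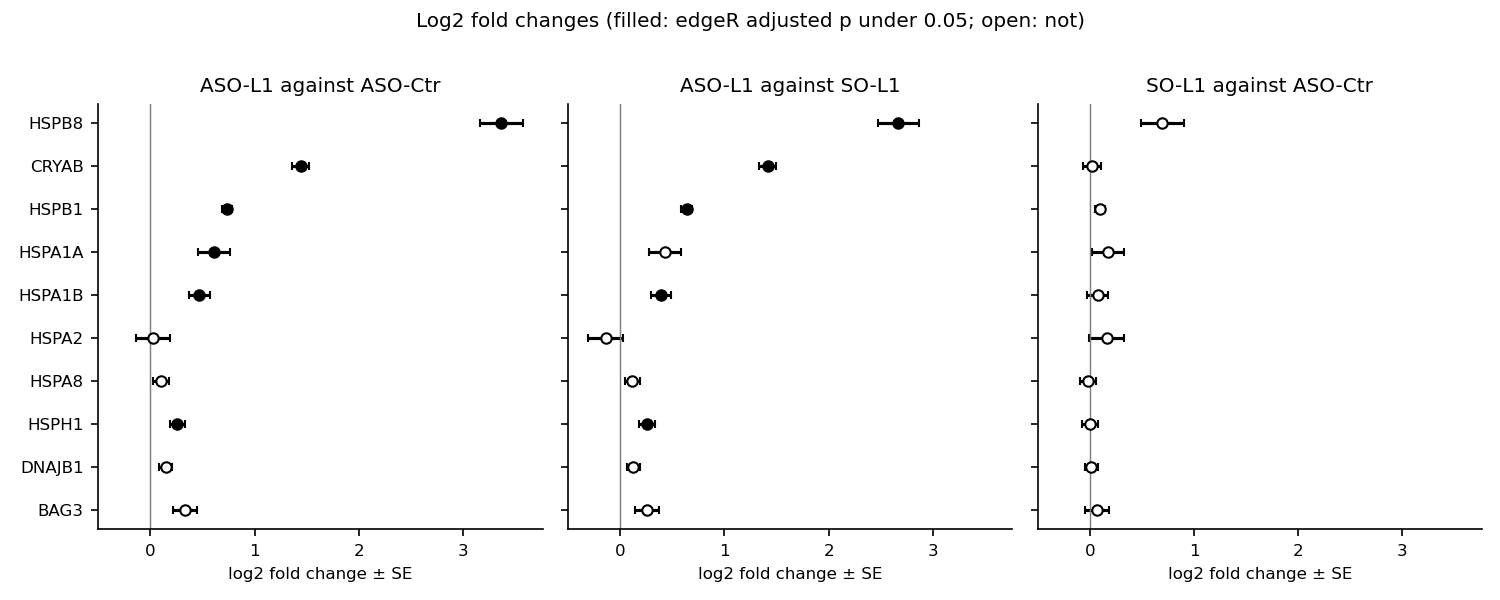
Log2 fold change ± SE of each gene (horizontal axis) in ASO-L1 against ASO-Ctr (left), ASO-L1 against SO-L1 (middle) and SO-L1 against ASO-Ctr (right). Filled points have an edgeR adjusted p under 0.05; HSPB8 lies farthest right in all 3 panels, at 3.36, 2.67 and 0.70, and is open in the right one.

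The comparison of ASO-L1 with SO-L1 sets the antisense strand against the sense strand of the same target. It shares the ASO-L1 libraries with the comparison above, so the 2 sets of values are not independent. Here 5 members were higher, 0 were lower and 5 did not pass, beside 20.3% of all genes called, 10.7% as higher and 9.64% as lower. In the blocked fit 9 members were higher and 0 lower, beside 43.4% of all genes called, 21.6% as higher and 21.7% as lower. HSPB8 and CRYAB were called and at least 2-fold higher, as were 1.86% of all genes tested. The median log2 fold change of the members was 0.33, beside -0.00 for all genes.

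HSPB8 in SO-L1 libraries stood at 9.59, 9.68, 13.8 and 15.6 CPM, all far below the 71.1 to 85.2 CPM of ASO-L1. The log2 fold change was 2.67 ± 0.20, or 6.36-fold (edgeR adjusted p 2.35e-06). CRYAB averaged 14.5 ± 1.12 CPM in ASO-L1 and 5.44 ± 0.398 CPM in SO-L1 (SD, n = 4 each), a log2 fold change of 1.42 ± 0.08 (edgeR adjusted p 3.53e-07). HSPB1 averaged 222 ± 9.31 CPM in ASO-L1 and 143 ± 8.47 CPM in SO-L1, a log2 fold change of 0.64 ± 0.05 (edgeR adjusted p 3.47e-06). The groups did not overlap for any of these 3 small heat shock genes.

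HSPA1B rose by a log2 fold change of 0.39 ± 0.10 (edgeR adjusted p 0.0125), with 53.1 ± 8.10 CPM in ASO-L1 and 40.4 ± 1.92 CPM in SO-L1. HSPH1 rose by 0.26 ± 0.08 on the log2 scale (edgeR adjusted p 0.0287), a call lost without ASO-L1 library 3 or 4 or SO-L1 library 1 or 2, where the adjusted p was 0.0777, 0.0818, 0.0834 and 0.0832. HSPA1A had 38.5 ± 9.39 CPM in ASO-L1 and 28.5 ± 2.63 CPM in SO-L1, with a log2 fold change of 0.43 ± 0.15 that did not pass (edgeR adjusted p 0.0613, and 0.00381 with the block). It passed without ASO-L1 library 1 (0.0214) or ASO-L1 library 2 (0.0335). With HSPA1A and HSPA1B summed, the log2 fold change was 0.41 ± 0.11 (edgeR adjusted p 0.0210).

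BAG3 averaged 20.7 ± 1.26 CPM in ASO-L1 and 17.3 ± 1.98 CPM in SO-L1. Its groups did not overlap, but the log2 fold change of 0.26 ± 0.11 did not pass (edgeR adjusted p 0.130, and 3.17e-04 with the block). DNAJB1 had a log2 fold change of 0.13 ± 0.06 (edgeR adjusted p 0.178, and 0.00248 with the block). HSPA8 had 0.12 ± 0.07 on the log2 scale (edgeR adjusted p 0.304, and 5.64e-04 with the block). HSPA2 had -0.14 ± 0.17 (edgeR adjusted p 0.623, and 0.445 with the block). In all, 6 members had every ASO-L1 library above every SO-L1 library, beside 12.7% of all genes. For BAG3 and HSPH1 the margin was small. The lowest ASO-L1 and highest SO-L1 libraries were at 19.15 and 19.11 CPM for BAG3, and at 232.3 and 231.7 CPM for HSPH1.

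The authors' deposited table of ASO-L1 against SO-L1 gives an adjusted p under 0.05 for 9 of the 10 genes, all with a positive log2 fold change. The share of all its 21414 entries under that threshold was not counted here, so the 9 stand without a background and are not a result about the members. The number of all genes that limma called on the deposited log2 values in this comparison is given in the closing section on processing. In the authors' deposited table the log2 fold change is 2.66 for HSPB8, 1.41 for CRYAB, 0.64 for HSPB1, 0.41 for HSPA1A and 0.39 for HSPA1B. HSPA2 is the exception in the authors' deposited table, at -0.18 with an adjusted p of 0.306. How that table was computed is not given in the sources used here.

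The comparison of SO-L1 with ASO-Ctr asks how far the 2 oligonucleotides used as controls differ. By edgeR 0 of the 10 members were called, beside 0.029% of all genes, which is 5 genes, with 527 genes under an unadjusted p of 0.05. DESeq2 called 0 members and 52 genes, and limma-voom called 0 members. The blocked fit called 0 members, beside 1.41% of all genes, 0.424% as higher and 0.987% as lower. No member had every SO-L1 library above every ASO-Ctr library, as 1.04% of all genes did. In the edgeR fit without the block HSPB8 was the only member with an unadjusted p under 0.05. It stood at 9.59, 9.68, 13.8 and 15.6 CPM in SO-L1 libraries, against 5.56, 5.50, 9.03 and 10.0 CPM in ASO-Ctr libraries. The groups overlapped, yet SO-L1 was higher in 4 of 4 pairs of the same number, with log2 ratios of 0.79, 0.82, 0.61 and 0.63. The log2 fold change was 0.70 ± 0.21 (edgeR p 0.00529, adjusted p 0.789, and adjusted p 0.500 with the block). Fitted within numbers 1 and 2 alone it was 0.80 (edgeR adjusted p 3.18e-05), and within numbers 3 and 4 alone 0.61 (edgeR adjusted p 2.80e-06). Each of these 2 fits set 2 libraries against 2, so its p-value measures only the spread within a pair.

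The other 9 members differed by log2 fold changes between -0.02 for HSPA8 and 0.18 for HSPA1A. HSPB1, HSPA1A and HSPA2 were, like HSPB8, higher in SO-L1 in 4 of 4 pairs of the same number. With the block HSPB1 also had an unadjusted p under 0.05 (edgeR p 0.00803, adjusted p 0.232). CRYAB averaged 5.44 ± 0.398 CPM in SO-L1 and 5.35 ± 0.184 CPM in ASO-Ctr (SD, n = 4 each). HSPH1 averaged 213 ± 18.3 CPM in SO-L1 and 213 ± 14.8 CPM in ASO-Ctr. Within numbers 3 and 4 alone HSPA2 was also called, at a log2 fold change of 0.21 (edgeR adjusted p 0.0327). The number of all genes called in that fit is given in the closing section on processing.

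The ASO-L1 effect on 4 members differed between library numbers 3 and 4 and library numbers 1 and 2. A test of this difference (edgeR, interaction of group and pair of numbers) called 134 genes in ASO-L1 against ASO-Ctr, which is 0.778% of all genes, and the 4 members HSPB8, HSPA1A, HSPA1B and HSPA2. In ASO-L1 against SO-L1 it called 303 genes, or 1.76%, and the same 4 members. In SO-L1 against ASO-Ctr it called 0 genes, with 896 genes under an unadjusted p of 0.05, and no other tool was run on this difference there. As the first 2 comparisons share the ASO-L1 libraries, they are not independent. The p-values of the difference rest on the spread between the 2 libraries of a pair within each group.

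**Figure D3:**
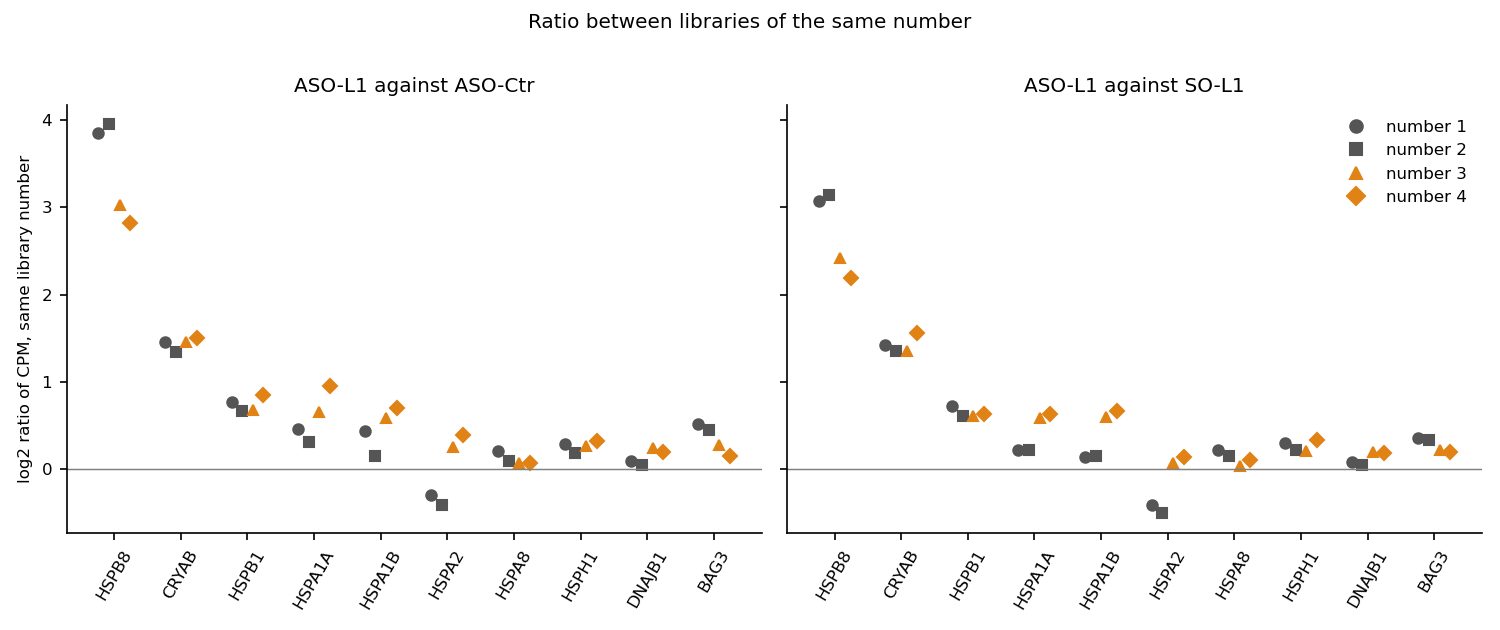
Log2 ratio of CPM between ASO-L1 and ASO-Ctr (left) and between ASO-L1 and SO-L1 (right) libraries of the same number, for each gene along the horizontal axis; gray circles and squares are numbers 1 and 2, orange triangles and diamonds numbers 3 and 4. HSPB8 has the larger ratios in numbers 1 and 2, HSPA1A and HSPA1B in numbers 3 and 4, and HSPA2 lies below 0 in numbers 1 and 2 and above 0 in numbers 3 and 4.

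For HSPB8 the log2 fold change of ASO-L1 against ASO-Ctr was 2.93 for numbers 3 and 4, against 3.91 for numbers 1 and 2, which gave a difference of -0.98 ± 0.12 (edgeR adjusted p 2.29e-07). Mean levels for numbers 3 and 4, and then for numbers 1 and 2, were 72.5 and 82.8 CPM in ASO-L1, 14.7 and 9.63 CPM in SO-L1, and 9.54 and 5.53 CPM in ASO-Ctr. Numbers 3 and 4 were thus the lower pair in ASO-L1 and the higher pair in SO-L1 and ASO-Ctr. Against SO-L1 the difference was -0.79 ± 0.10 (edgeR adjusted p 9.73e-07).

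HSPA2 went the other way. Its log2 fold change of ASO-L1 against ASO-Ctr was 0.31 for numbers 3 and 4, against -0.36 for numbers 1 and 2, which gave a difference of 0.68 ± 0.08 (edgeR adjusted p 1.82e-07). Mean levels for numbers 3 and 4, and then for numbers 1 and 2, were 51.5 and 30.1 CPM in ASO-L1, 48.1 and 41.6 CPM in SO-L1, and 41.4 and 38.6 CPM in ASO-Ctr. Against SO-L1 the difference was 0.57 ± 0.08 (edgeR adjusted p 7.27e-06).

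HSPA1A and HSPA1B had larger changes in numbers 3 and 4. For HSPA1A the log2 fold changes of ASO-L1 against ASO-Ctr were 0.79 for numbers 3 and 4, against 0.36 for numbers 1 and 2 (difference 0.42 ± 0.10, edgeR adjusted p 0.0234). For HSPA1B they were 0.64 and 0.26 in the same order (difference 0.38 ± 0.09, edgeR adjusted p 0.0255). Against SO-L1 the differences were 0.39 ± 0.10 for HSPA1A (edgeR adjusted p 0.0271) and 0.49 ± 0.09 for HSPA1B (edgeR adjusted p 8.23e-04). With both genes summed the difference did not pass against ASO-Ctr (0.40, edgeR adjusted p 0.0518) and passed against SO-L1 (0.45, edgeR adjusted p 0.0125).

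The other 6 members gave no call for such a difference. CRYAB had log2 fold changes of ASO-L1 against ASO-Ctr of 1.48 for numbers 3 and 4, against 1.40 for numbers 1 and 2 (edgeR adjusted p of the difference 0.942). HSPB1 had 0.76 and 0.71 (0.872), HSPH1 0.28 and 0.23 (0.846), and BAG3 0.21 and 0.48 (0.348). DNAJB1 had 0.22 and 0.06 (0.331), and HSPA8 0.07 and 0.15 (0.736). No label says what the numbers share, so what separates the 2 pairs was not tested.

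Levels of different genes were compared as CPM per kilobase of transcript (GENCODE release 29 lengths). In all 3 groups HSPA8 was highest, at 1153 ± 62.1 CPM per kb in ASO-L1, 1061 ± 105 CPM per kb in SO-L1 and 1073 ± 91.3 CPM per kb in ASO-Ctr. HSPA8 alone made up 76.3% to 82.2% of the members' counts per library. Of its 50-base stretches 15.41% occur in other genes, mostly the pseudogene HSPA8P1. HSPB1, DNAJB1 and HSPH1 came next in each group, and the rest of the order differed between groups.

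HSPB8 was rank 5 of the 10 in ASO-L1, at 36.1 ± 2.96 CPM per kb, rank 9 in SO-L1, at 5.65 ± 1.39 CPM per kb, and rank 10 in ASO-Ctr, at 3.50 ± 1.09 CPM per kb. In ASO-L1 its libraries spanned 33.0 to 39.6 CPM per kb, clear of HSPH1 above (44.7 to 54.3) and HSPA1B below (18.2 to 23.9). Levels of HSPA1A and HSPA1B depend on how the reads they share were divided, and the pair was not ranked as 1 gene. The ranges of HSPA1B and HSPA1A (11.9 to 19.0) overlapped, as did those of HSPA1A and CRYAB (11.5 to 13.6) and those of BAG3 (7.45 to 8.46) and HSPA2 (5.55 to 9.55). In ASO-Ctr the ranges of HSPB8 (2.55 to 4.67) and CRYAB (4.55 to 4.91) overlapped by a little.

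The genes whose log2 CPM profile over the 12 libraries was nearest to a member's were found among 13247 genes. Likeness was the root mean square difference of centred log2 CPM, which is smaller for nearer profiles, and the libraries share both the groups and the pairs of numbers. For HSPB8 they were FLNC, which encodes filamin C, a client of the HSPB8 and BAG3 machinery in muscle (0.238), and LAMB3, a laminin chain (0.260). Those 2 genes rose by log2 fold changes of 2.90 and 3.18 in ASO-L1 against ASO-Ctr. For CRYAB they were the stress transcription factor ATF3 (0.123) and S100A14 (0.123). For HSPB1 they were CSRNP2 (0.0597) and ARHGAP23 (0.0785), for HSPA1A SYT11 and LIPG, for HSPA1B RGS10 and ABHD6, and for HSPA2 TNFSF9 and NKD1. The nearest genes were NHP2L1 and METTL13 for HSPA8, PPIL3 and CLU for DNAJB1, PRPF4 and NTMT1 for HSPH1, and MED10 and CCDC97 for BAG3.

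The rest of the chaperone network was read from 10 lists, beside which stand 11.6% of all genes higher and 10.7% lower in ASO-L1 against ASO-Ctr, and 22.5% in each direction with the block. In ASO-L1 against ASO-Ctr, 2 of 5 tested heat shock factors and binding partners were higher and 0 lower. These were HSF1, the main activator of the heat shock response, at a log2 fold change of 0.20 ± 0.07 (edgeR adjusted p 0.0425), and HSF2, at 0.30 ± 0.10 (edgeR adjusted p 0.0442). The HSF1 call was kept only in the fits without ASO-L1 library 4 or SO-L1 library 1, 3 or 4, and its adjusted p reached 0.118. The HSF2 call was kept only without ASO-L1 library 2 or ASO-Ctr library 4, and its adjusted p reached 0.110.

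Of the other small heat shock genes 4 were tested, and 1 was higher. HSPB7, known from heart, had 0.652 ± 0.190 CPM in ASO-L1 and 0.290 ± 0.104 CPM in ASO-Ctr (SD, n = 4 each), a log2 fold change of 1.16 ± 0.39 (edgeR adjusted p 0.0493). That call was kept only without ASO-L1 library 3, SO-L1 library 4 or ASO-Ctr library 2, and its adjusted p reached 0.152. HSPB3 had 0 counts in all 12 libraries. The 4 tested genes were HSPB2, HSPB6, HSPB7 and HSPB11. Their median log2 fold change was -0.11, beside 0.40 for the 10 cytosolic heat shock genes and -0.00 for all genes. HSPB2 had -0.07 ± 0.25, HSPB6 -0.25 ± 0.23 and HSPB11 -0.15 ± 0.09. In ASO-Ctr HSPB2 and HSPB6 averaged 0.604 and 0.981 CPM, and HSPB11 14.4 CPM. With HSPB2, HSPB6 and HSPB7 this low, the median cannot show whether small heat shock genes outside the members rose.

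Among 7 other Hsp70 and Hsp110 genes 1 was higher and 1 lower, and with the block 2 and 2. HSPA14, an Hsp70 at the ribosome, had a log2 fold change of 0.26 ± 0.05 (edgeR adjusted p 0.00398). HSPA12A had -0.43 ± 0.14 (edgeR adjusted p 0.0479), a call kept only without ASO-L1 library 4, SO-L1 library 1 or 3, or ASO-Ctr library 2. HSPA6, a strictly inducible human Hsp70 named here after its values were seen, averaged 1.44 ± 1.35 CPM in ASO-L1 and 0.401 ± 0.370 CPM in ASO-Ctr. Its log2 fold change was 1.83 ± 0.89 (edgeR adjusted p 0.169, and 4.01e-07 with the block).

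Of 12 other J domain genes 5 were higher and 1 lower, and with the block 7 and 1. DNAJB2 had a log2 fold change of 0.55 ± 0.11 (edgeR adjusted p 0.00373), DNAJA4 0.33 ± 0.07 (0.00683) and DNAJB5 0.22 ± 0.05 (0.00849). DNAJB6, which holds back aggregation of polyglutamine proteins, had -0.33 ± 0.04 (1.35e-04). Among 8 other BAG proteins and Hsp70 cofactors 2 were higher and 1 lower, and with the block 4 were higher and 1 lower. BAG5 had 0.29 ± 0.04 (edgeR adjusted p 1.15e-04), BAG2 0.30 ± 0.07 (0.00607), and HSPBP1, a nucleotide exchange factor for Hsp70, -0.48 ± 0.08 (0.00108). Against SO-L1 BAG5 had 0.30 and HSPBP1 -0.47, but BAG2 had 0.11 ± 0.07 and was not called (edgeR adjusted p 0.318). BAG2 stood at 0.20 ± 0.07 on the log2 scale in SO-L1 against ASO-Ctr.

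Of 13 genes of the Hsp90 machinery 1 was higher and 0 lower, and with the block 3 were higher and 2 lower. HSP90AA1, the inducible cytosolic Hsp90, had a log2 fold change of 0.23 ± 0.07 (edgeR adjusted p 0.0430), a call lost without ASO-L1 library 3 or 4, SO-L1 library 4, or ASO-Ctr library 1 or 2, with adjusted p up to 0.123. HSP90AB1, the constitutive form, had 0.04 ± 0.04 (0.579). Of 14 TRiC and prefoldin subunits, which fold actin and tubulin, 2 were higher and 0 lower, and with the block 6 and 1. PFDN2 had 0.31 ± 0.07 (edgeR adjusted p 0.00777) and CCT6A 0.14 ± 0.04 (0.0400), and the CCT6A call was kept only without ASO-L1 library 2, SO-L1 library 1 or 2, or ASO-Ctr library 4.

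Outside the cytosol, 3 of 10 mitochondrial chaperone and protease genes were higher and 1 lower, and with the block 6 and 1. HSPA9, the mitochondrial Hsp70, had a log2 fold change of 0.24 ± 0.04 (edgeR adjusted p 0.00141) and DNAJA3, its J partner, 0.21 ± 0.04 (0.00373). LONP1, a matrix protease, had 0.17 ± 0.05 (0.0175), lost without ASO-L1 library 1 or 2 or ASO-Ctr library 3 or 4. CLPB, a disaggregase, had -0.27 ± 0.06 (0.00834). HSPD1, the mitochondrial Hsp60, had 0.10 ± 0.03 (0.0508, and 0.0423 without ASO-Ctr library 2).

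Of 13 chaperones of the endoplasmic reticulum 1 was higher and 5 were lower, beside 11.6% and 10.7% of all genes, and with the block 1 and 7. HSP90B1, the resident Hsp90, had a log2 fold change of -0.34 ± 0.05 (edgeR adjusted p 3.97e-04), PDIA4 -0.30 ± 0.05 (9.63e-04), DNAJC3 -0.26 ± 0.05 (0.00310) and PDIA6 -0.17 ± 0.04 (0.00378). Against SO-L1 HSP90B1 had -0.32, PDIA4 -0.23 and PDIA6 -0.13, but DNAJC3 had 0.02 ± 0.05 (edgeR adjusted p 0.811). DNAJC3 was also low in SO-L1 against ASO-Ctr, at -0.28 ± 0.05 (edgeR adjusted p 0.0884). HSPA5, the resident Hsp70, had -0.03 ± 0.09 (0.863). In the list of selective autophagy and quality control genes 2 of 10 were higher and 0 lower, and with the block 4 and 1. SQSTM1, the autophagy receptor p62, had 1.02 ± 0.08 (edgeR adjusted p 1.88e-06), with 139 ± 3.19 CPM in ASO-L1, 79.7 ± 7.92 CPM in SO-L1 and 68.6 ± 6.67 CPM in ASO-Ctr.

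In ASO-L1 against SO-L1, where 10.7% of all genes were higher and 9.64% lower, the same lists gave calls of higher and lower in 1 and 0 of the 7 Hsp70 genes, 4 and 1 of the 12 J domain genes, and 1 and 1 of the 8 cofactors. The counts were 2 and 0 of the 14 TRiC and prefoldin subunits, 5 and 1 of the 10 mitochondrial genes, 1 and 4 of the 13 reticulum genes, and 2 and 0 of the 10 quality control genes. Of these 23 calls 11 were kept in all 12 fits that leave out 1 library, among them 2 of the 6 mitochondrial, 2 of the 5 J domain, 3 of the 5 reticulum and 0 of the 2 TRiC and prefoldin calls. Each of the 12 libraries, when left out, ended at least 1 call, and the adjusted p reached 0.146. The heat shock factors, the other small heat shock genes and the Hsp90 machinery gave 0 calls in that comparison by edgeR, and with the block 2 and 0, 1 and 1, and 5 and 2 calls. In SO-L1 against ASO-Ctr the 10 lists gave 0 calls by edgeR, and with the block 3 genes were higher and 1 lower.

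**Figure D4:**
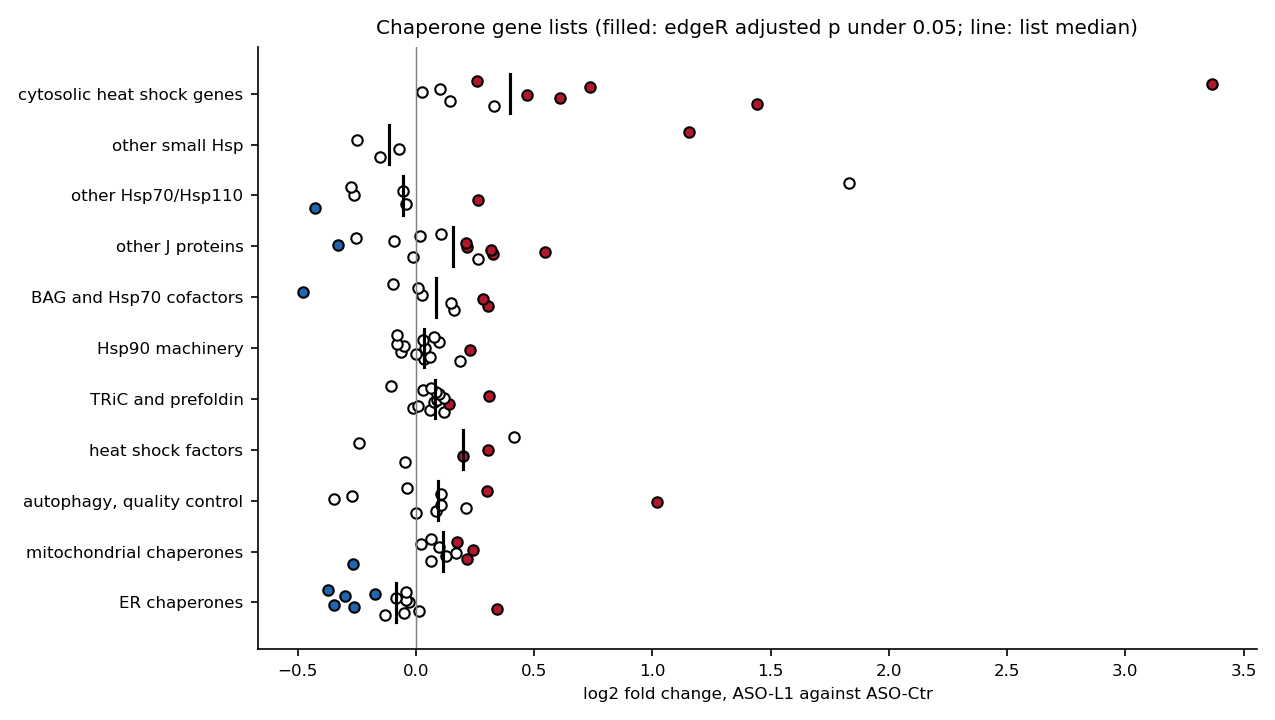
Log2 fold change of ASO-L1 against ASO-Ctr (horizontal axis) for each tested gene of the 10 cytosolic heat shock genes (top) and of the 10 other lists, 1 point a gene. Red filled points were called higher and blue filled points lower (edgeR adjusted p under 0.05), open points were not called, and the short vertical lines are list medians; HSPB8 and CRYAB are the rightmost points of the top row and SQSTM1 and HSPB7 the rightmost filled points elsewhere.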

How the data were processed

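The deposited table holds raw counts per gene symbol, 1 column per library. Per the submitters' processing notes Trim Galore 0.4.0, TopHat2 2.0.13 and featureCounts of Subread 1.5.0 were used with hg19. Per the file headers the gene column is unnamed, so each name was read as the next column. The name of the deposited table speaks of duplicate removal, which can cap counts of abundant genes such as HSPA8. RNA was selected by poly(A) and libraries kept strand, per the labels' protocols. The authors also deposited log2 values named as batch-corrected and a table with log2 fold changes and adjusted p-values for ASO-L1 against SO-L1. The batches behind the deposited log2 values are not given in the sources used here. A row without a gene symbol, with 0 to 3 counts per library, was left out.

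The count fits used edgeR 4.0.16 under R 4.3.3 (TMM factors, filterByExpr with a least count of 10 and a least total of 15, robust quasi-likelihood test, 1 mean per group, all 12 libraries). P-values were Benjamini-Hochberg adjusted over 17228 genes. CPM used effective library sizes. The main edgeR, DESeq2, limma-voom and interaction fits were tested on simulated data. Those data held no difference between the pairs of numbers common to all groups, unlike the libraries. The blocked fit and the fit on the deposited log2 values were not tested in this way. Alternatives used DESeq2 1.42.0, limma 3.58.1, RLE factors, no filter, the library number as a block, subsets of libraries and the deposited log2 values. The numbers were taken as pairs because all 12 same-number correlations across groups were at least 0.450, although the other number of the same pair correlated as highly (0.455 to 0.543), and the block by number was kept as an alternative. The least and highest chi-square per gene between libraries of a group were 1.87 and 33.7, so libraries differed by more than counting noise, which does not tell separate cultures from repeat preparations. The members, the gene lists and the tests were chosen with earlier results of these data known. Named genes were all members, HSF1, HSF2, HSP90AA1, HSP90AB1, HSPA5, HSPD1, up to 4 called genes per list by smallest p in ASO-L1 against ASO-Ctr, and the 2 nearest profiles per member. One gene that this rule names is not reported here.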

Additional observations from a re-analysis of the deposited data

Results flagged for a closer look

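In the ASO-L1 group the lowest CRYAB library, ASO-L1 2 at 12.9 CPM, stood apart from the other 3, which lay between 15.0 and 15.2 CPM. A test of this kind marks about 1 in 20 groups by chance. Without that library the log2 fold change of CRYAB against ASO-Ctr was 1.49, beside 1.44 with it.

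The effect of ASO-L1 differed between library numbers 3 and 4 and numbers 1 and 2 by an interaction test (edgeR, adjusted p under 0.05) in 4 members. Against ASO-Ctr the differences on the log2 scale were -0.98 for HSPB8, 0.42 for HSPA1A, 0.38 for HSPA1B and 0.68 for HSPA2. Against SO-L1 they were -0.79 for HSPB8, 0.39 for HSPA1A, 0.49 for HSPA1B and 0.57 for HSPA2. The cause was not tested.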

How the results depend on the processing

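HSPB8, CRYAB and HSPB1 kept their calls as higher in both ASO-L1 comparisons under every alternative run, and HSPA1A and HSPA1B in the one against ASO-Ctr. HSPA1B against SO-L1 was not called in numbers 1 and 2 alone (0.14, adjusted p 0.138). With the library number as a replicate block 9 members were higher in each ASO-L1 comparison, and 7747, 7469 and 243 genes were called in ASO-L1 against ASO-Ctr, ASO-L1 against SO-L1 and SO-L1 against ASO-Ctr. In the same order, limma on the deposited log2 values called 9356, 9144 and 601 of 21097 genes. Fits within 1 pair of numbers had 2 libraries a group, and their p-values measure the spread within that pair. They called 6045, 5863 and 124 of 17141 genes in numbers 1 and 2, and 6103, 5861 and 201 of 17461 in numbers 3 and 4. Against SO-L1, 9 members were higher on the deposited log2 values and 8 in numbers 3 and 4. In numbers 1 and 2 alone 1 member, HSPA2, was lower in each ASO-L1 comparison. For SO-L1 against ASO-Ctr 1 member was higher in numbers 1 and 2 and 2 in numbers 3 and 4, DESeq2 called 52 genes and no filter 8. Leaving out 1 library gave 5 to 7, 4 to 6 and 0 to 0 members higher, 0 to 0 lower in each comparison, and 3131 to 3861, 2741 to 3446 and 5 to 7 genes.

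HSPA2 against ASO-Ctr turned to -0.032 with limma-voom, -0.00081 with the block, -0.36 in numbers 1 and 2 (adjusted p 1.63e-05) and -0.0011 on the deposited log2 values, and ran from -0.11 to 0.14 with 1 library left out. Against SO-L1 it turned to 0.11 in numbers 3 and 4. In SO-L1 against ASO-Ctr HSPH1 turned to -0.0017 with RLE factors, -0.0017 with DESeq2, -0.00050 with the block, -0.021 in numbers 1 and 2 and -0.0042 on the deposited log2 values. With 1 library left out in that comparison, HSPH1 ran from -0.042 to 0.043, HSPA8 from -0.066 to 0.025, DNAJB1 from -0.0089 to 0.044, CRYAB from -0.022 to 0.057 and BAG3 from -0.0033 to 0.16. The cause was not tested. BAG3 against ASO-Ctr also passed with DESeq2 (adjusted p 0.0340), limma-voom (0.0427) and no filter (0.0349), and HSPA1A against SO-L1 with DESeq2 (0.0313). No scaling moved the median of all genes by over 0.1. Such scaling sets the bulk of genes near no change, so this median cannot show a shift common to all genes.

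The lowest count of any member in any library was 111. The 4 libraries a group and the spread between the 2 pairs of numbers limit the smaller changes. L1 RNA, protein and untreated cells were not analysed here.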
